A study of Homo sapiens with 12 samples.

Results

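Of the 24242 genomic regions at which endogenous FOXA1 was called in all 8 FOXA1 libraries, 1228 shared no base with a peak of either HA-tagged FOXA1 protein. These missed regions made up 5.07% of the 24242 (95% exact interval 4.79 to 5.35%). They were found by merging the FOXA1 peaks of the 8 libraries that shared at least 1 base, which gave 140968 regions, keeping those called in all 8, and removing every region touched by a peak of the wild-type (WT) or the K295A list. The other 23014 regions are called overlapping regions here, of which 21121 were touched by both tagged proteins, 1017 by WT alone and 876 by K295A alone.

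The data are chromatin immunoprecipitation with sequencing (ChIP-seq) of LNCaP, a human prostate cancer cell line that responds to androgen. According to the title of the series, the study asked how Polycomb and a BUB3/USP7 complex control the stability of FOXA1 protein. One experiment precipitated the HA tag at day 5 after infection, and each of its conditions is 1 library without replicates. The conditions were the pGIPZ control vector, a hairpin against FOXA1 (shFoxA1), shFoxA1 with WT FOXA1 and shFoxA1 with FOXA1 carrying the K295A substitution, an alanine in place of a lysine. In the other experiment, an antibody against FOXA1 was used after 7 days, with 2 libraries per group and no hairpin. The groups were DMSO, 1 µM EPZ-6438, 3 µM P5091, and both compounds together at those doses (the combination). EPZ-6438, or tazemetostat, inhibits the Polycomb methyltransferase EZH2, and P5091 inhibits the deubiquitinase USP7. The experiments thus differ in antibody, day, infection and protein, and these cannot be told apart at a region that one saw and the other did not. Nothing in the labels tells if the replicates came from separate cultures. The p-values therefore cover only the spread among these libraries, which may be technical.

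FOXA1 is a forkhead transcription factor of luminal epithelium. It is called a pioneer factor because it binds DNA wrapped in nucleosomes and helps other factors, in prostate cells the androgen receptor among them, to reach their enhancers. A tagged protein precipitated through its tag reports where the introduced protein sits, whereas an antibody against FOXA1 reports the protein that the cells make themselves.

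The depth was 12299238 to 22589685 tags (aligned reads kept by the peak caller) in the FOXA1 libraries and 11640056 to 13694090 in the HA libraries. The peak caller found 97120 peaks for WT and 81607 for K295A, against 982 for pGIPZ and 971 for shFoxA1, which carry no tag by their labels. No missed region shared a base with a peak of either untagged library. FOXA1 peaks numbered 68504 to 84423 in 7 libraries, but 30811 in combination replicate 1, where 5.26% of tags lay in peaks against 18.86 to 21.2% in the others. That library stands apart, and results that rest on it are also given without it. Without it, 37724 regions were called in all remaining libraries and 3688 of them (9.78%) were missed. The compound fits without that library keep the 24242 regions, whose choice used it, and the wider set was not fitted.

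Among the regions called in all 8 libraries, the missed regions were weak. Strength is given as the normalized tag count of the highest peak in the region, that is tags scaled to a library of 1e+07 tags, and a region's strength over libraries is the geometric mean of its 8 counts. Its median was 19.5 at missed regions (quartiles 16.3 and 24.2) and 33.3 at overlapping regions (24.0 and 49.5). Regions touched by a single tagged protein lay close to the missed ones, with medians of 21.4 for WT alone and 21.95 for K295A alone, whereas regions touched by both had 35.0. The ranges overlapped widely, since missed regions reached from 10.4 to 104.3. On the log2 (count + 1) scale, the median of the missed regions lay lower by a difference of -0.74, and over the 8 libraries the difference averaged -0.76 ± 0.18 (SD, n = 8). Because the members were chosen by whether peaks were called, these values describe them and were not tested.

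Missed regions were weaker than overlapping regions in each of the 8 libraries. In replicate 1 their median normalized tag count was 22.7 in DMSO, 22.1 in EPZ-6438, 21.5 in P5091 and 11.3 in the combination. The overlapping medians in those libraries were 41.7, 35.9, 39.8 and 15.6. In replicate 2 the missed medians were 18.0, 23.6, 20.6 and 22.9 in the same order, and the overlapping ones 37.7, 39.0, 38.7 and 37.1. Over all called peaks of a library the medians were 19.7, 16.4, 18.9 and 13.8 in replicate 1. They were 15.7, 17.1, 16.3 and 16.6 in replicate 2. The missed medians lay above these in every library but combination replicate 1, so missed regions were not weak among all FOXA1 peaks. The ratio of missed to overlapping medians was smallest in DMSO replicate 2, at 0.477, and largest in combination replicate 1, at 0.724. In both replicates the ratio was higher with EPZ-6438 and with the combination than with DMSO, so the gap to the overlapping regions was narrower in the 4 libraries treated with EPZ-6438. With P5091 the ratio was 0.540 against 0.544 with DMSO in replicate 1, and 0.532 against 0.477 in replicate 2. Every treated library of replicate 2 thus had a higher ratio than DMSO. Weak regions without a call in combination replicate 1 were left out by the rule, which can raise the ratio of that library.

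**Figure D1:**
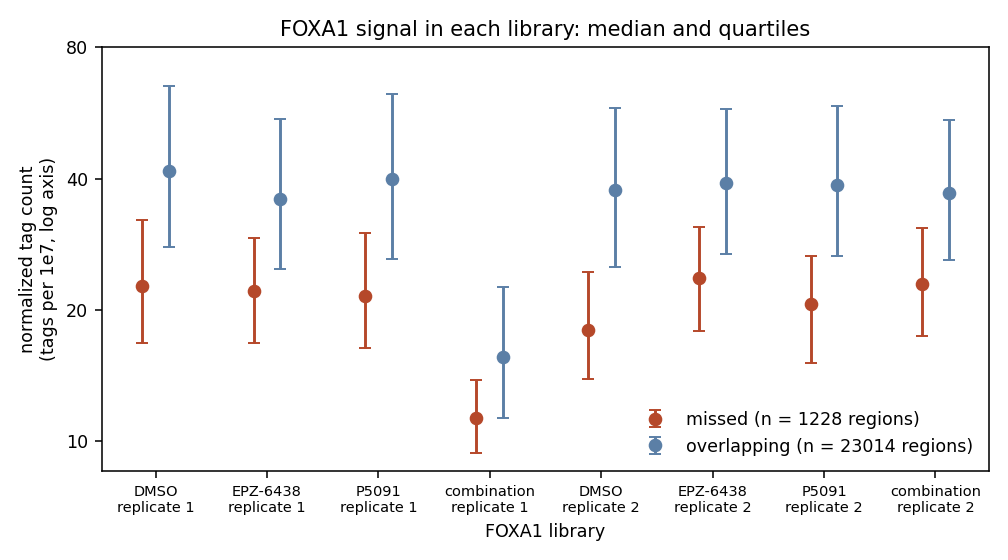
Normalized tag counts (tags per 1e+07, log axis) of missed and overlapping regions in each of the 8 FOXA1 libraries; points are medians over regions and bars the quartiles. The missed regions lie lower in every library, and both sets are lowest in combination replicate 1, at 11.3 and 15.6.

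The share of regions missed fell steeply with strength. When the 24242 regions were cut into 10 equal bins of mean log2 tag count, 504 of 2425 regions (20.8%, 95% exact interval 19.2 to 22.5%) were missed in the weakest bin. The share was 11.1% in the second bin, 7.01% in the third and 3.09% in the fifth, and it ended at 0.165% in the strongest bin, with 4 regions. The 5 weakest bins held 1135 of the missed regions, or 92.4%. Most regions of the weakest bin were still touched by a tagged protein, so low strength was common to most missed regions without being particular to them. In the overlapping regions of that bin the WT peak itself had a median normalized tag count of 14.5, against 67.2 in the strongest bin, and the lowest count that WT could call at its false discovery rate was 7.63.

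**Figure D2:**
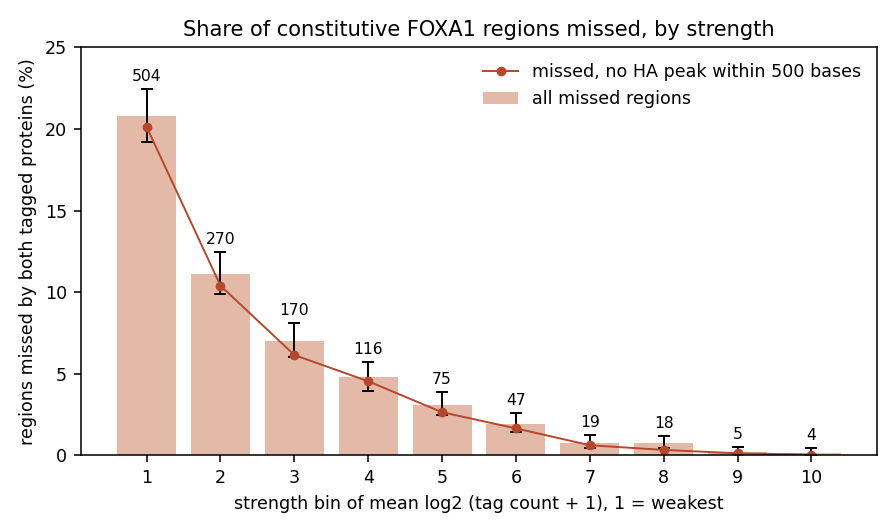
Share of regions called in all 8 FOXA1 libraries that were missed by both tagged proteins (vertical axis, percent), in 10 bins of mean log2 (tag count + 1) from weakest to strongest. Bars show all missed regions with 95% exact intervals and their number above, and the line shows those with no HA peak within 500 bases; the share drops from 20.8% to 0.165%.

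Fold over input is the peak caller's ratio of FOXA1 tags to tags of an input library, chromatin without precipitation, and there is 1 input for each treatment. Its geometric mean over libraries had a median of 20.5 at missed regions and 32.6 at overlapping regions. The values at missed regions ran from 5.60 to 150.0, all above the 4-fold required by the peak caller. By library the missed median was lowest in combination replicate 1, at 13.7 against 17.6 at overlapping regions, and highest in combination replicate 2, at 27.8 against 41.3. At equal strength the gap was smaller. In the weakest bin the median fold over input was 18.0 at missed and 17.6 at overlapping regions, and missed regions were lower in 4 of the 6 bins that held at least 20 of them. The fold rests on few input tags, with medians of 0.8 to 2 by library in either set, and it is not independent of the tag count. In single regions it varied widely, as from 54.7 to 362.6 over the libraries at chr9:84301163-84301531.

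Fold over the local window compares a peak with the 10 kb around it, and it was lower at missed regions also at equal strength. Its median was 15.9 at missed and 24.3 at overlapping regions. Within strength bins it was lower at missed regions in 6 of 6 bins, from 14.4 against 15.5 in the weakest bin to 14.8 against 24.8 in the sixth. Put the other way, among regions of the 5 strongest bins with a local fold of 4 to 8, 17 of 155 (10.97%) were missed, and among those with a local fold of 32 or more the share was 0.216%. In the 5 weakest bins the same classes gave 20.04% (107 of 534) and 5.25%. The local fold was the sole fold filter of the HA lists, which had no input, per the file headers, and the part of that filter in the missed calls was not tested.

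**Figure D3:**
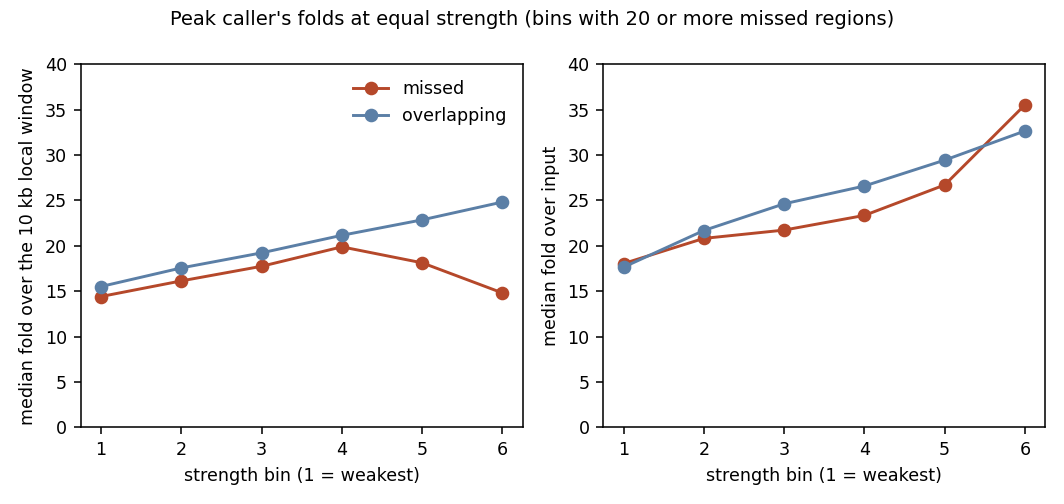
Median fold over the 10 kb local window (left) and over input (right) of missed and overlapping regions in the 6 strength bins with at least 20 missed regions. The local fold of missed regions lies lower in all 6 bins, while the input fold lies lower in 4 of them.

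Most missed regions, 1130 of 1228, had no tagged peak within 500 bases, and these are called far regions here. The median distance to the nearest WT or K295A peak was 7259.5 bases, with quartiles of 2536 and 16600, and the largest was 141561. Distances from random positions were not taken for comparison. No WT peak lay within 10 kb of 45.4% of missed regions, against 1.57% of overlapping regions, a gap that the rule itself widens because an overlapping region mostly holds a WT peak. A group of 98 regions (7.98%) had a tagged peak within 500 bases without touching it. These near regions had a median strength of 23.9, and the nearest WT peak had a median of 25.2 and the nearest K295A peak 23.4. The peak caller leaves out a peak whose centre lies too close to a stronger one, within 608 bases for WT and 598 for K295A. The centres of 66 missed regions (5.37%) lay within that distance of a called centre of at least 1 of the lists, and those of 1162 lay outside it for both.

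Near and far regions differed in shape. The focus ratio, the peak caller's measure of how tightly tags gather around the centre of a peak, was under 0.8 in 37 near regions (37.8%), against 108 far regions (9.56%) and 8.46% of overlapping regions. Among the 100 strongest missed regions 27 were near a tagged peak (exact interval 18.6 to 36.8%), and among the other 1128 there were 71 (6.29%, 4.95 to 7.87%). The 46 missed regions in the 4 strongest bins included 19 near ones. The local fold of far regions differed by distance. From 500 to 5000 bases the median local fold was 9.89 to 11.7 in the 3 distance classes, and beyond 5000 bases it was 17.7 to 21.6, although the median strength fell slightly.

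**Figure D4:**
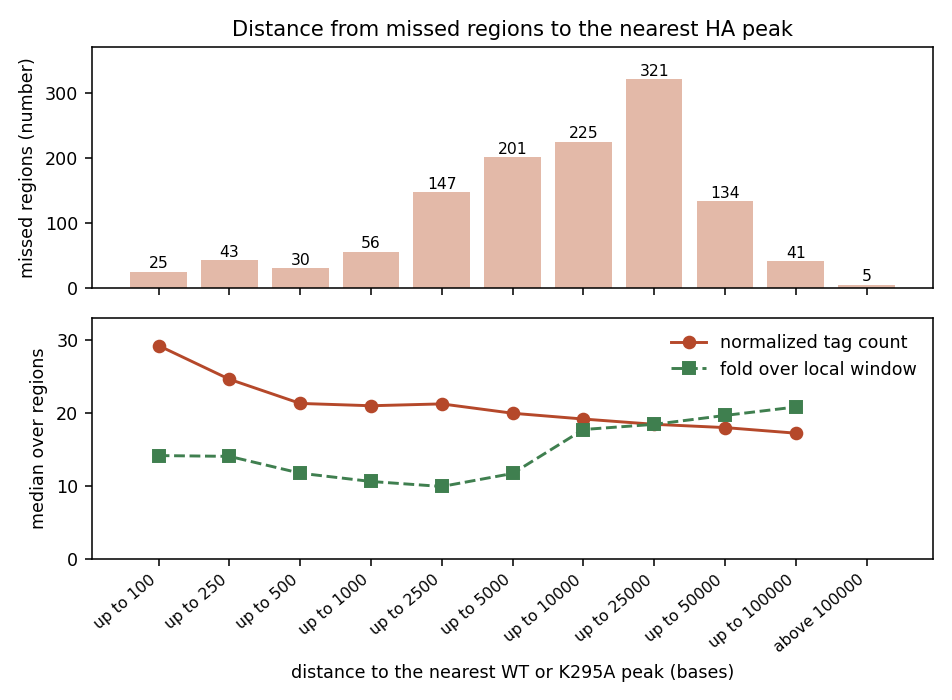
Number of missed regions by distance in bases to the nearest WT or K295A peak (top), and their median normalized tag count and fold over the local window (bottom, classes with at least 20 regions). The largest class, from 10000 to 25000 bases, holds 321 regions, and the local fold is lowest from 1000 to 2500 bases, at 9.89.

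The edge of the rule was thin. The regions just inside it lay 2, 4, 8, 8 and 11 bases from a tagged peak, with strengths of 19.3, 30.6, 19.4, 19.2 and 22.01. Those just outside shared 1, 5, 6, 9 and 12 bases with one, with strengths of 22.3, 16.5, 35.9, 18.9 and 24.2. Only 12 missed regions lay within 50 bases of a tagged peak, and 9 overlapping regions shared 50 bases or fewer, so few members turn on the exact width of peaks.

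In peak geometry the missed regions were slightly less sharp. Their median width after merging was 424.5 bases against 408 at overlapping regions. The peak centres of the 8 libraries spread over a median of 93 bases at missed and 74 at overlapping regions, and the median focus ratio was 0.873 against 0.893. At equal strength the direction of the gaps in width and focus ratio varied by bin. In the weakest bin the median width was 434 at missed and 436 at overlapping regions, and the focus ratio 0.864 against 0.861. In the fifth bin both gaps ran in the direction seen over all regions, at 417 against 412 and 0.881 against 0.888. The spread of centres was not compared by bin. Each of the 1228 missed regions held a single peak per library. Another region called in all 8 libraries lay within 10 kb of 24.8% of missed regions (exact interval 22.4 to 27.4%) and 20.9% of overlapping ones (20.4 to 21.4%). Another missed region lay within 10 kb of 26 (2.12%) and within 100 kb of 119 (9.69%), so they stood mostly apart from one another.

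Missed regions were spread over the chromosomes. The share missed ranged from 2.68% on chromosome 17 (21 of 783, exact interval 1.67 to 4.07%) to 7.10% on chromosome 11 (84 of 1183, 5.70 to 8.72%). On chromosome X it was 6.95% (29 of 417). The interval of 20 of the 23 chromosomes 1 to 22 and X held the overall share of 5.07%. Of the missed regions, 1222 lay on these chromosomes. Positions below are in build hg19, counted from 1. Genes and sequences at the regions were not analysed here.

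Most of the 10 strongest missed regions on the main chromosomes stood within 500 bases of a tagged peak, whereas 27 of the 100 strongest missed regions did. The strongest, chr9:70837309-70837678, had normalized tag counts in replicate 1 of 175.5 in DMSO, 123.5 in EPZ-6438, 144.2 in P5091 and 33.8 in the combination. In replicate 2 it had 106.2, 116.3, 107.1 and 100.2 in the same order. All libraries but combination replicate 1 lay above 100, and tagged peaks of 55.7 for WT and 61.0 for K295A stood 175 and 173 bases away.

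The next, chr9:84301163-84301531, had the highest fold over input of all missed regions, 150.0, and a low focus ratio of 0.69. Its counts were 122.9, 112.0, 129.8 and 34.4 in replicate 1 and 114.4, 113.8, 121.7 and 95.5 in replicate 2, for DMSO, EPZ-6438, P5091 and the combination. A WT peak of 77.8 lay 107 bases away and a K295A peak of 93.4 lay 99 bases away. At chr13:45428330-45428701, with a strength of 79.1, the distances were 145 and 118 bases. In all, 6 of the 10 strongest had a tagged peak within 500 bases.

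The other 4 of these 10 stood farther off. At chr16:56404784-56405164 the counts were 87.0, 69.1, 94.6 and 21.9 in replicate 1 and 72.0, 44.7, 61.7 and 48.9 in replicate 2, in the same order of treatments. Fold over input was 75.7 there but the local fold 11.1, and the nearest tagged peaks lay 1651 (WT) and 1755 (K295A) bases away. In both replicates the DMSO and P5091 libraries lay above those with EPZ-6438.

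The region chr4:101553304-101553691 had a local fold of 7.98 and tagged peaks of 119.8 (WT) and 127.3 (K295A) at 1481 and 1471 bases. Both tagged peaks were among the higher ones seen beside these 10 regions. Its counts were 84.1, 60.6, 97.2 and 21.3 in replicate 1 and 49.9, 61.0, 72.6 and 48.9 in replicate 2. The region chr3:183013119-183013491 likewise had tagged peaks of 111.4 and 114.5 at 3314 and 3335 bases and a local fold of 10.9. At chr2:233160726-233161106 fold over input was 133.1, local fold 21.6 and the nearest tagged peak 4602 bases away. Its counts varied little, from 50.2 to 76.1 in 7 libraries and 34.4 in combination replicate 1.

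Some fairly strong regions had no tagged peak anywhere near. Among the 100 strongest, the farthest was chr5:37254726-37255110, 58731 bases from a tagged peak. Its counts were 38.0, 44.3, 37.2 and 15 in replicate 1 and 28.4, 47.2, 59.3 and 36.3 in replicate 2, for DMSO, EPZ-6438, P5091 and the combination. The treated libraries of replicate 2 lay above DMSO there, and those of replicate 1 lay on both sides of it.

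The other far regions of this kind were chr10:61725169-61725603, chr2:46319456-46319856, chrX:21430022-21430466 and chr10:119249946-119250314, at 55214, 42210, 41963 and 41312 bases. The region on chromosome X had a fold over input of 77.1 and a local fold of 46.4, so it was well above both backgrounds. At the weak end, chr13:111512747-111513186 had counts from 8.13 to 12.8 in the 8 libraries, and chr17:40795955-40796358 had 7.89 to 17.6. Most tag counts in those regions lay close to the lowest counts that the libraries could call, 6.20 to 8.13. Among the exceptions, the region on chromosome 17 had 15.5 in EPZ-6438 replicate 1 and 17.6 in P5091 replicate 1. The lowest fold over input was 5.60, at chr16:86296025-86296464, where the local fold was 16.1.

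For the compounds, the planned limma test over all 24242 regions called no missed region. Its background was 0% of all regions at a Benjamini-Hochberg adjusted p under 0.05 in each of 5 comparisons. At an unadjusted p under 0.05, 37 missed regions (3.01%) differed between EPZ-6438 and DMSO, 31 of them higher, against 0.961% of all regions. For P5091 the number was 1, against 0.0495% of all. For the combination 63 missed regions (5.13%) passed, 54 of them lower, against 14.1% of all. edgeR on tags recovered from the counts called 0 missed regions in each of these 3 comparisons. Unadjusted it passed 141 (11.5%), 12 (0.977%) and 220 (17.9%) of them, against 7.06%, 0.837% and 10.5% of all regions. With the 4 libraries containing EPZ-6438 set against the 4 without, limma called 0, with 71 (5.78%) unadjusted against 8.89% of all, and edgeR called 6 against 0.149% of all. With the 4 libraries containing P5091 against the 4 without, both called 0, limma with 13 (1.06%) unadjusted against 0.833% of all and edgeR with 38 (3.09%) against 1.49%. Comparisons with DMSO share its 2 libraries. Leaving out combination replicate 2 leaves the library that stands apart as the only one of its group, assumed to vary like the others. The planned limma fit then called 359 missed regions for the combination, 357 of them lower, against 66.4% of all regions. It called 188 for the 4 libraries against 4 by EPZ-6438 (47.5% of all) and 109 by P5091 (30.4% of all). Leaving out any other library gave 0 in each of the 5 comparisons.

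The replicate numbers were taken to pair the libraries, which the labels do not state, and whole libraries differ in level. For this reason limma was also fitted after centring every library on its own median and with a block for the replicate number. A centred difference is relative to the median of all 24242 regions in the library. In that fit 10 missed regions (0.814%) rose with EPZ-6438 and 0 fell, against 0.689% of all regions called, 0.322% higher and 0.367% lower. With the combination 64 (5.21%) rose and 6 (0.489%) fell, against 4.23% of all called, 1.8% higher and 2.43% lower. In either direction together, the 10 calls for EPZ-6438 thus lay near the background. Every region had to be called in combination replicate 1. In that library 71.3% of missed and 38.9% of overlapping regions had tags under 2 times the lowest count it could call. Weak regions with fewer tags there were left out by the rule. That choice can raise differences of the combination, and of the 4 libraries with EPZ-6438, at missed regions. Its part in the calls was not tested.

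Leaving out single libraries moved these numbers. For EPZ-6438, 0 missed regions were called without DMSO replicate 2, EPZ-6438 replicate 1 or EPZ-6438 replicate 2, where 0%, 0.0289% and 0% of all regions were. The number was 4 without DMSO replicate 1, 6 without P5091 replicate 1 and 5 without P5091 replicate 2, against 0.186%, 0.351% and 0.322% of all. It was 22 (1.79%) without combination replicate 1 and 20 (1.63%) without combination replicate 2, at or below the 1.86% and 1.81% of all regions. All missed regions called in these fits were higher, and of all regions 0.809% and 0.755% were called higher in the last 2.

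For the combination, 1 missed region was called without DMSO replicate 2 (0.206% of all) and 9 (0.733%) without combination replicate 1 (0.635% of all). There were 20 without DMSO replicate 1, and 39 and 40 without EPZ-6438 replicates 1 and 2, against 0.978%, 2.62% and 2.66% of all. Without combination replicate 2, 92 missed regions (7.49%) were called, close to the 7.36% of all. Of those 92, 86 (7.00%) were higher, against 3.12% of all regions.

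With the 4 libraries containing EPZ-6438 set against the 4 without, the same fit called 121 missed regions, of which 114 (9.28%) rose and 7 (0.570%) fell. Of all regions, 7.54% were called, 3.49% higher and 4.05% lower. Of overlapping regions, 3.18% rose and 4.24% fell. Missed regions thus made up 13.5% of the 846 regions that rose (95% exact interval 11.2 to 15.96%) and 0.713% of the 982 that fell (0.287 to 1.46%), beside 5.07% of all regions. These shares treat regions as independent, which they need not be. They also include combination replicate 1, in which every region had to be called. Every left-out library but combination replicate 2 lowered the number called by over 1.5 times. It was 16 (1.30%) without P5091 replicate 1, 25 (2.04%) without EPZ-6438 replicate 2, 38 (3.09%) without DMSO replicate 2 and 43 (3.50%) without EPZ-6438 replicate 1. The shares of all regions in those fits were 0.928%, 1.85%, 2.51% and 3.06%, not far below. Without DMSO replicate 1, combination replicate 1 and P5091 replicate 2 it was 69 (5.62%), 71 (5.78%) and 75 (6.11%), against 4.13%, 4.57% and 5.00% of all. By direction, 1.30 to 5.70% of missed regions and 0.450 to 2.53% of all regions were called higher in these 7 fits. edgeR with the same block called 141 (11.5%), of which 134 were higher, against 7.9% of all regions. For EPZ-6438 alone it called 21 (1.71%), against 1.61% of all, and for the combination 66 (5.37%), against 3.22%.

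Strength moved with these calls among overlapping regions, where 4.32% were called higher in the weakest bin and 0.620% in the strongest. The percentage of overlapping regions called lower increased from 0.36 in the weakest bin to 10.6 in the strongest. Within the bins with at least 20 missed regions, the share called higher was larger at missed than at overlapping regions in 5 of 6, at 9.52 against 4.32% in the weakest bin and 11.8 against 5.10% in the third. In the sixth bin it was 2.13 against 3.41%. Over the first 6 bins the share of missed regions called higher was 9.52, 9.63, 11.8, 6.90, 6.67 and 2.13%. The stronger bins each held fewer than 20 missed regions. There 4 of 19 were called higher in the seventh bin, 2 of 18 in the eighth, 0 of 5 in the ninth and 0 of 4 in the tenth. After the dependence of each library on mean tag count (its trend) was removed, 74 missed regions passed, against 5.61% of all regions. Of missed regions 64 (5.21%) were higher and 10 (0.814%) lower, against 2.98% and 2.60% of overlapping regions, and 64 of the 114 risers were called higher again. Missed regions then made up 8.53% of the 750 regions higher and 1.64% of the 609 lower, both nearer to the 5.07% of all regions than with centring. The same step left 29 for the combination, against 2.26% of all, and 10 for EPZ-6438 alone, against 0.73%. For the combination 25 (2.04%) were higher and 4 (0.326%) lower, against 1.19% and 1.06% of overlapping regions. For EPZ-6438 all 10 (0.814%) were higher, against 0.378% of overlapping regions. In either direction together, the numbers called with the trend removed lay near the shares of all regions.

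**Figure D5:**
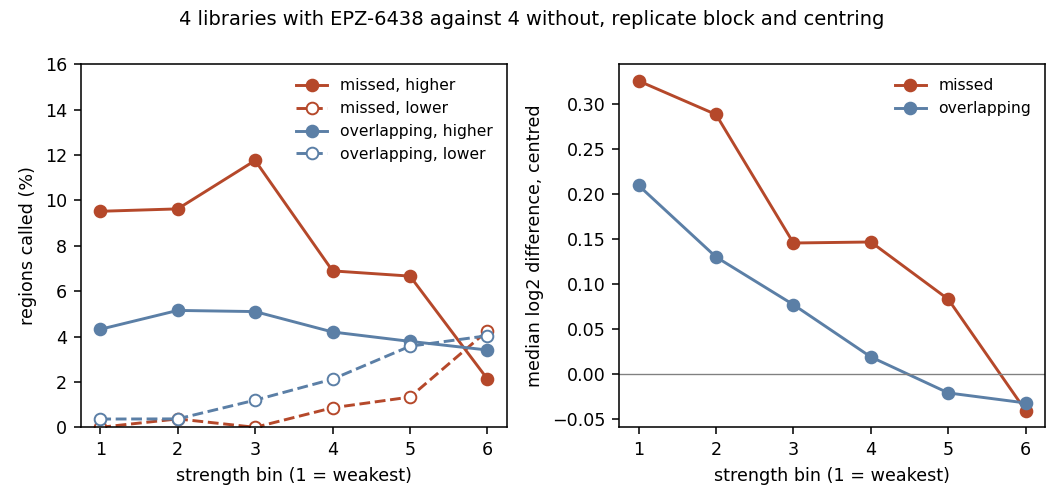
Regions called higher or lower (left, percent) and median centred log2 difference (right) between the 4 libraries with EPZ-6438 and the 4 without, from limma with replicate block and centring, in the 6 strength bins with at least 20 missed regions. Missed regions were called higher more often than overlapping ones in bins 1 to 5, and less often in bin 6, at 2.13 against 3.41%.

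Without centring, the direction depended on the library. Set against the DMSO library of the same replicate number, the median log2 difference of missed regions in replicate 1 was -0.08 for EPZ-6438, -0.05 for P5091 and -0.95 for the combination. In overlapping regions it was -0.20, -0.07 and -1.36. In replicate 2 the missed medians were 0.31, 0.12 and 0.29, and the overlapping ones 0.03, 0.03 and -0.05. Missed regions thus lay above overlapping ones in each of these 6 differences, and by the least with P5091. For combination replicate 1 the required call in that library bears on the difference. In replicate 2, 876 of the missed regions (71.3%) were above DMSO with EPZ-6438 and 865 (70.4%) with the combination. The same shares of overlapping regions were 52.3 and 46.2%. DMSO replicate 2 had the lowest missed median of its replicate, and it enters all 3 differences of replicate 2.

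Among the 114 missed regions that rose, the log2 difference ran from 0.63 to 1.60 with a median of 0.90, their median strength was 19.3, and 3 had a tagged peak within 500 bases. At chr4:81630615-81631049 the 4 libraries without EPZ-6438 gave 14.6 (DMSO) and 10.4 (P5091) in replicate 1 and 6.97 and 20 in replicate 2. The 4 with it gave 28.8 (EPZ-6438 alone) and 20.6 (combination) in replicate 1 and 29.3 and 45.8 in replicate 2. The groups did not overlap, and the difference was 1.60 ± 0.26 (SE), with an adjusted p of 6.16e-05 in limma with block and centring and 0.404 in the planned limma fit. This region lay 21201 bases from a tagged peak.

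At chr15:92882479-92882923 the counts without EPZ-6438 were 11 (DMSO) and 16.3 (P5091) in replicate 1 and 7.55 and 20 in replicate 2. With it they were 27.9 (EPZ-6438 alone) and 21.3 (combination), then 36.6 and 33.9. Every library with EPZ-6438 again exceeded every one without, with a log2 difference of 1.49 ± 0.25 (SE) and an adjusted p of 9.58e-05 in limma with block and centring. For EPZ-6438 alone against DMSO it was 1.76 ± 0.35, with an adjusted p of 0.00584 in that fit and of 1 in the planned limma fit.

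At chr18:35620739-35621147, 80214 bases from a tagged peak, combination replicate 1 departed from the pattern. The DMSO counts were 11.7 and 8.13, those of P5091 7.83 and 10.9, those of EPZ-6438 34.5 and 25.2, and those of the combination 10.6 and 29.2. The groups overlapped through that 1 library, and the planned limma fit for EPZ-6438 against DMSO gave 1.5 ± 0.45 (SE) with an adjusted p of 1. Its adjusted p for the same comparison was 0.0313 in limma with block and centring, 0.0321 with the trend removed and 0.00502 in edgeR with the block. At chr1:185460724-185461202, 289 bases from a tagged peak, the DMSO counts were 9.51 and 12.2 and the EPZ-6438 counts 21.7 and 47.2. The difference was 1.55 ± 0.34, with an adjusted p of 0.0148 in limma with block and centring. P5091 replicate 2 was also high there, at 31.5.

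The 7 missed regions that fell were stronger, with a median strength of 33.6, and 3 of them had a tagged peak within 500 bases. At chr6:111391310-111391718 the counts without EPZ-6438 were 47.5 (DMSO) and 54.1 (P5091) in replicate 1 and 33.7 and 30.9 in replicate 2. With it they were 31.0 and 9.38, then 18.7 and 9.47, the second of each pair with the combination. The groups overlapped only by the 31.0 of EPZ-6438 replicate 1 against 30.9. The log2 difference was -0.99 ± 0.23 (SE), with an adjusted p of 0.0036 in limma with block and centring. At chr5:150674670-150675060 the counts were 46.6 to 57.4 in the 4 libraries without EPZ-6438 and 12.5 to 30.9 in the 4 with it (log2 difference -0.76 ± 0.20, adjusted p of 0.0134 in the same limma fit).

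P5091 gave no call at missed regions in any of the fits on all 8 libraries. With block and centring limma called 0 against a background of 0%, with 28 missed regions (2.28%) at an unadjusted p under 0.05 and 2.22% of all regions, and edgeR with the block called 0, with 32 unadjusted (2.61%) against 2.83% of all. For the 4 libraries with P5091 against the 4 without, the fit with block and centring called 0, with 63 (5.13%) unadjusted against 4.29% of all, and edgeR with the block called 0, with 67 (5.46%) unadjusted against 4.38% of all. The median centred difference of missed regions was 0.03 for P5091 against DMSO and 0.10 for the 4 against 4, beside 0.17 and 0.24 for EPZ-6438 in the same comparisons. The missed region with the smallest p among those higher, in both limma fits, chr2:147844941-147845464, had DMSO counts of 9.51 and 8.13 and P5091 counts of 18.9 and 20.6 (log2 difference 1.08 ± 0.47, adjusted p of 1 in limma). The libraries with EPZ-6438 were as high there, at 21.2 and 17.1.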

How the data were processed

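Data were the peaks of 12 ChIP-seq libraries. Bowtie2 and HOMER 4.2 were used with build hg19, per the submitters' processing notes. Peaks were called in each library alone at a false discovery rate of 0.001, with 4-fold more tags than a 10 kb local window at a Poisson p-value of 0.0001, and for FOXA1 also 4-fold more than input, per the file headers. The normalized tag count is a signal value scaled by the authors to 1e+07 tags, per the file headers. Stricter lists used the deposited findPeaks score (at least 17 for HA and 20 for FOXA1, the medians), the deposited focus ratio is a fraction, and the deposited fold over input or local window is a ratio computed by the peak caller. Deposited p-values for each peak were not used. Total tags per library are counts, per the file headers. Tags for edgeR were recovered from normalized counts and library totals.

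Members, lists and named regions were chosen with earlier results of these data known. Named regions lie on the main chromosomes. They are the 10 strongest missed regions, the 5 farthest from tagged peaks among the 100 strongest, the 3 weakest, the 3 with the highest and the 3 with the lowest fold over input, and for each comparison the 2 with the smallest p in each direction in the planned fit and in the fit with block and centring. The text gives those that its results turn on. A region's value in a library is that of its highest peak. limma 3.58.1 (R 4.3.3, trend on) was fitted to log2 (count + 1), which understates changes of weak regions, over all 24242 regions with 1 coefficient per group, and p-values were adjusted by Benjamini-Hochberg. Alternatives included edgeR 4.0.16 (quasi-likelihood, TMM). Replicate numbers come from the titles. Deviations of same-numbered libraries from their group means correlated at 0.148 to 0.488 over all regions in all 6 pairs of groups. Over missed regions alone they correlated at 0.058 to 0.363. From the values over all regions, the numbers were taken to pair the libraries. Intervals are exact (Clopper-Pearson) and cover counting error only. Merging, distances to the nearest peak, limma as planned and with block and centring, and edgeR without the block were tested on simulated data with known answers. The removal of the trend and edgeR with the block were not tested in this way. Sequences, motifs and genes at the regions were not analysed here, because no genome of build hg19 was used.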

Additional observations from a re-analysis of the deposited data

How the results depend on the processing

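The share missed was 18.1% (4385 regions) with HA peaks at or above the median score, 4.66% (1130) when an HA peak within 500 bases counted as overlap, 5.81% (1408) when it had to cover the middle base, 6.20% (1502) with equal numbers of top HA peaks, and 1.06% (110 of 10416) with FOXA1 peaks at or above the median score, where the strength difference was -0.55. Leaving out each library gave shares of 5.19 to 9.78% and strength differences of -0.78 to -0.72. Of the 10 strongest missed regions, 4 remained under the 500-base definition. The cause of these shifts was not tested, beyond what each definition changes by its construction.

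The replicate block alone left 0 missed regions called in each of the 5 comparisons. The block with centring called 10 (0.814%) for EPZ-6438 and 70 (5.70%) for the combination. It called 121 (9.85%) for the 4 libraries with EPZ-6438 against 4 without. Of all regions it called 0.689%, 4.23% and 7.54%. edgeR with the block called 21 (1.71%), 66 (5.37%) and 141 (11.5%), against 1.61%, 3.22% and 7.9% of all. limma with block and trend removed, added after seeing the data, called 10, 29 and 74, against 0.73%, 2.26% and 5.61% of all. For the 4 against 4, centring alone and edgeR without block each called 6 (0.489%), against 0.157% and 0.149% of all. Leaving out each library from the planned fit gave 0 to 359 for the combination, 0 to 188 for the 4 against 4 with EPZ-6438 and 0 to 109 with P5091. From the fit with block and centring it gave 0 to 22 for EPZ-6438, 1 to 92 for the combination and 16 to 167 for the 4 against 4. The median log2 difference of missed regions changed sign with centring, from -0.32 to 0.35 for the combination, from -0.13 to 0.24 for the 4 against 4 with EPZ-6438 and from -0.21 to 0.10 with P5091. Without centring it also turned without combination replicate 1 (0.15, 0.11 and 0.04). For EPZ-6438 against DMSO it was 0.11, and -0.03 without DMSO replicate 2. For P5091 it was 0.03, but -0.11 without DMSO replicate 2 and -0.02 without P5091 replicate 1. Among the stronger part of the regions it was -0.01 for EPZ-6438. Depth limits the weakest regions, whose tags lie near the lowest count that a library could call. The planned motif search was not run.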
